A study of Mus musculus with 6 samples.

Results

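The probe sets of corticosteroid-binding globulin (Serpina6), of the alpha-1-antitrypsin copies Serpina1c and Serpina1d, and those shared by Serpina1a to Serpina1e were lower in the adrenal samples of adult female mice with developmental NMDA receptor antagonism, whereas Serpina3n and Serpina10 did not pass the test. These genes belong to the Serpina family, taken here as 10 genes: Serpina1a, Serpina1b, Serpina1c, Serpina1d, Serpina1e, Serpina3k, Serpina3m, Serpina3n, Serpina6 and Serpina10. Every probe set whose platform annotation held 1 of these symbols was taken, which gave 7 of the 25150 probe sets in the table. Of the 7, 5 carried a single symbol (Serpina6, Serpina1c, Serpina1d, Serpina3n and Serpina10), and 2 (10402399 and 10402409) carried all 5 Serpina1 symbols and cannot be assigned to any single copy. No probe set carried the symbol Serpina3k or Serpina3m, so that 8 of the 10 genes were covered and these 2 were not analysed here.

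The CGP group held female C57Bl/6J offspring of dams given the NMDA (N-methyl-D-aspartate) receptor antagonist CGP 39551 by mouth at 5 mg/kg body weight during pregnancy and up to weaning. The control group held age-matched female C57Bl/6J offspring, labelled only as control. All mice were on standard chow, the adrenals were taken and frozen at 21 weeks of age, RNA of 18 mice was pooled in each group, and 3 arrays were run per group. Nothing states whether the arrays of a group came from separate pools, so p-values measure only the spread between arrays, which may be technical.

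Serpins are a superfamily of proteins that mostly trap proteases: the protease cuts an exposed loop of the serpin and is locked to it in a misfolded complex. The Serpina clade is largely made by hepatocytes and secreted into plasma. Serpina6 has lost the inhibitor role and carries corticosterone, the main glucocorticoid made by the mouse adrenal cortex, in the blood, so that it sets how much of the hormone is free. The mouse has several near-identical alpha-1-antitrypsin genes, where humans have a single functional SERPINA1, an inhibitor of neutrophil elastase and related proteases. Which proteases each mouse copy inhibits was not examined here. Serpina3n is an acute phase inhibitor related to human antichymotrypsin and is made in many tissues besides liver, and Serpina10 is the protein Z-dependent inhibitor of coagulation factor Xa.

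The 5 Serpina1 copies lie in 1 stretch of chromosome 12, with pseudogenes between them, and part of each promoter is shown to compare them. The following stretches are those of RefSeq (GRCm38.p6, all on the minus strand, written 5′ to 3′), 96 bases each, and are shown because the copies share 2 of the 7 probe sets. Capitals mark TGTTTGC, a form of the motif of the liver transcription factors of the FOXA family. Each stretch was cut around this motif, so that the motif is shared by construction and the likeness holds for these stretches only. The motif began 48 to 59 bases before the annotated start in Serpina1a to Serpina1d, and 110 bases before it in Serpina1e.
Serpina1a (chr12:103863625-103863720): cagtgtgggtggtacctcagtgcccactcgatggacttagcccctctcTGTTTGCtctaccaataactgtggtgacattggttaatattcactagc
Serpina1b (chr12:103738200-103738295): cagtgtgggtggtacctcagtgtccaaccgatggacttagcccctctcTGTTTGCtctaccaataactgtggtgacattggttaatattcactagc
Serpina1c (chr12:103904962-103905057): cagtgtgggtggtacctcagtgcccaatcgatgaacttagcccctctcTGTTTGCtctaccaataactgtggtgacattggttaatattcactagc
Serpina1d (chr12:103773634-103773729): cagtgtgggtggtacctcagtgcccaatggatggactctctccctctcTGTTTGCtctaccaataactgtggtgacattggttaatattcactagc
Serpina1e (chr12:103956960-103957055): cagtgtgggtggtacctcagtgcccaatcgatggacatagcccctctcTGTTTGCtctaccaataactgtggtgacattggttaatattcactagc

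All 5 stretches had the same base at 86 of the 96 positions, and pairs of copies were 92.7% to 97.9% identical, with Serpina1d the copy that differed most from the others. Among 8 short motifs searched on both strands in the 250 bases before each annotated start, TGTTTGC was found in all 5 Serpina1 promoters and in 4.30% of the 32851 promoters of the table. Because the copies are near-identical, these 5 matches are not independent. The other motifs were found in none of the 6 promoters available for the family, those of the Serpina1 copies and Serpina3n. They included TGTTTAC, another FOXA form (3.17% of all promoters), and an HNF4 site (0.384%). CEBP forms (0.164% and 0.895%), a STAT site (7.02%) and the TATA box (12.4%) were among them too. Among those not found, the palindromic glucocorticoid response element was present in only 3 of the 32851 promoters. Its absence from these 6 therefore says little. The same holds for the other motifs not found, since 5 of the 6 promoters are near-identical and most of the motifs are rare. TGTTTGC was not found in the Serpina3n promoter. A match of letters is a description and does not show that a factor binds there. The promoters of Serpina6, Serpina10, Serpina3k and Serpina3m were not among the sequences used.

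Expression is given as log2 values after robust multi-array average (RMA) processing, so that a difference of 1 is a 2-fold change. All 7 probe sets passed the filter on low values (3 or more of the 6 arrays at a log2 of 6 or above) and entered a limma fit over 17022 probe sets. At an adjusted p under 0.05, 5 of the 7 were lower in the CGP group, 0 were higher and 2 did not pass, where 1.66% of all tested probe sets were lower, 1.80% were higher and 3.46% were called in either direction. The 5 were those of Serpina6, Serpina1c, Serpina1d and the 2 shared by the Serpina1 copies, so that they stand for fewer than 5 independent genes. The values of the CGP arrays lay below those of all control arrays at the same 5 probe sets, as they did at 12.8% of all tested, while 26.2% of all were apart in either direction. The same 5 had a difference of -0.60 or lower, as 0.764% of all tested did. This cutoff was not part of the planned test and lies between the values of these 5 and those of the other 2. The count therefore adds no separate support.

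**Figure D1:**
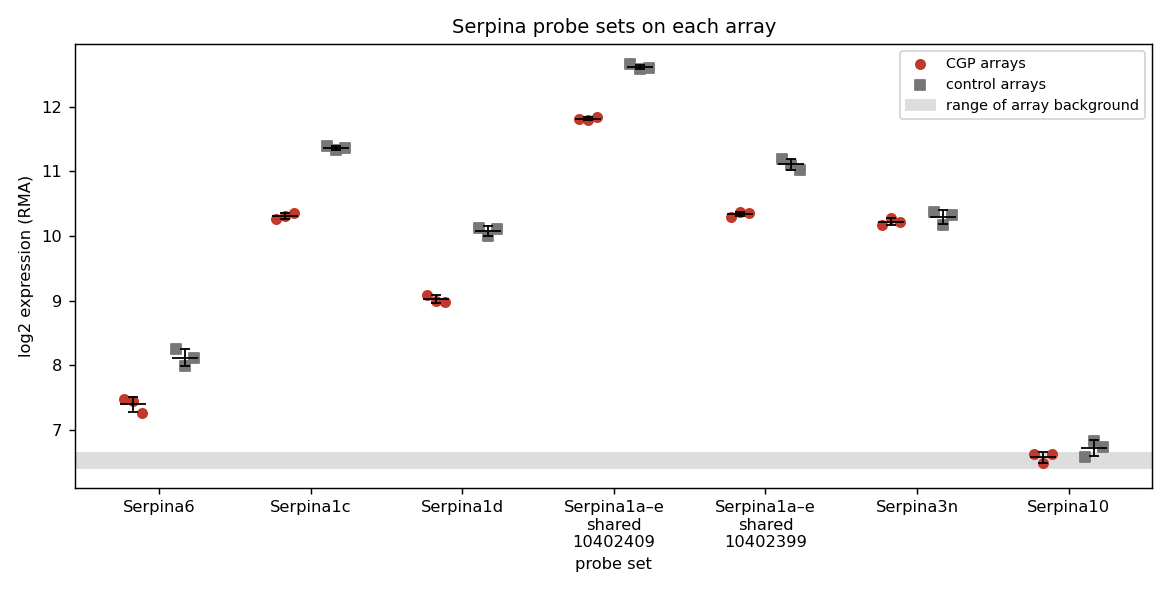
Log2 expression (vertical axis) of the 7 Serpina probe sets (horizontal axis) on each of the 3 CGP arrays (red circles) and 3 control arrays (grey squares), with black marks for group means and their SD, and the range of the array background (6.42 to 6.65) as a grey band. The groups are apart for Serpina6 and the 4 probe sets of alpha-1-antitrypsin, they overlap for Serpina3n, and Serpina10 lies at the edge of the background.

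Serpina6, the plasma carrier of corticosterone, had log2 values of 7.48, 7.45 and 7.26 on the CGP arrays, against 8.26, 7.99 and 8.11 on the control arrays. The highest CGP value lay 0.51 below the lowest control value. All 6 values lay above the background of their array, which was taken from 127 sensory receptor probe sets (olfactory, vomeronasal and trace amine) at their 75th percentile (6.42 to 6.55 on the CGP arrays and 6.49 to 6.65 on the control arrays). The means were 7.40 ± 0.12 in the CGP group and 8.12 ± 0.14 in the control group (SD, n = 3 arrays each), a difference of -0.72 (SE 0.09, 95% interval -0.92 to -0.52, limma adjusted p = 0.00392), or 1.65-fold lower. This gene had the widest spread among the probe sets that fell, with ranges of 0.22 over the CGP arrays and 0.27 over the control arrays. Only 96 of the 17022 probe sets had a more negative difference, since Serpina6 ranked 97 from the lowest.

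Serpina1c and Serpina1d, the alpha-1-antitrypsin copies with a probe set of their own, showed the most negative differences of the family. Serpina1c had values of 10.26, 10.31 and 10.35 on the CGP arrays, against 11.38, 11.32 and 11.35 on the control arrays. The groups were separated by 0.97, and the values within a group differed by no more than 0.10. The difference was -1.05 (SE 0.05, 95% interval -1.15 to -0.94, limma adjusted p = 6.3e-05), a 2.06-fold lower level. Serpina1d had values of 9.09, 8.99 and 8.98 on the CGP arrays, against 10.12, 9.99 and 10.11 on the control arrays. Its difference was -1.06 (SE 0.06, 95% interval -1.19 to -0.93, limma adjusted p = 0.000115), or 2.08-fold lower, with no overlap between the groups. Because the copies are near-identical, a probe set that the annotation gives to a single copy may also have measured the others.

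The 2 probe sets shared by all 5 copies fell less than those given to Serpina1c or Serpina1d alone. Probe set 10402409 had values of 11.80, 11.79 and 11.84 on the CGP arrays, against 12.66, 12.59 and 12.59 on the control arrays, a difference of -0.80 (SE 0.04, 95% interval -0.90 to -0.70, limma adjusted p = 0.000121), or 1.74-fold lower. Probe set 10402399 had values of 10.30, 10.36 and 10.36 on the CGP arrays, against 11.19, 11.10 and 11.02 on the control arrays, a difference of -0.77 (SE 0.06, 95% interval -0.90 to -0.64, limma adjusted p = 0.000328), or 1.70-fold lower. The groups did not overlap at either. These values describe the copies together, and Serpina1a, Serpina1b and Serpina1e have no value of their own.

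Serpina3n and Serpina10 did not pass the test. Serpina3n, the acute phase inhibitor, had values of 10.16, 10.27 and 10.21 on the CGP arrays, against 10.37, 10.17 and 10.33 on the control arrays. The groups overlapped, since control array 2 lay within the CGP range. The difference was -0.07 (SE 0.06, limma adjusted p = 0.569), and its 95% interval of -0.22 to 0.08 did not reach the differences of Serpina6 or of alpha-1-antitrypsin. Serpina10, the inhibitor of factor Xa, had values of 6.63, 6.48 and 6.62 on the CGP arrays, against 6.59, 6.83 and 6.74 on the control arrays. The groups overlapped through control array 1, and the difference was -0.14 (SE 0.07, 95% interval -0.31 to 0.03, limma adjusted p = 0.354). All 6 values lay above the background of their array but close to it, which limits what this test can show.

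**Figure D2:**
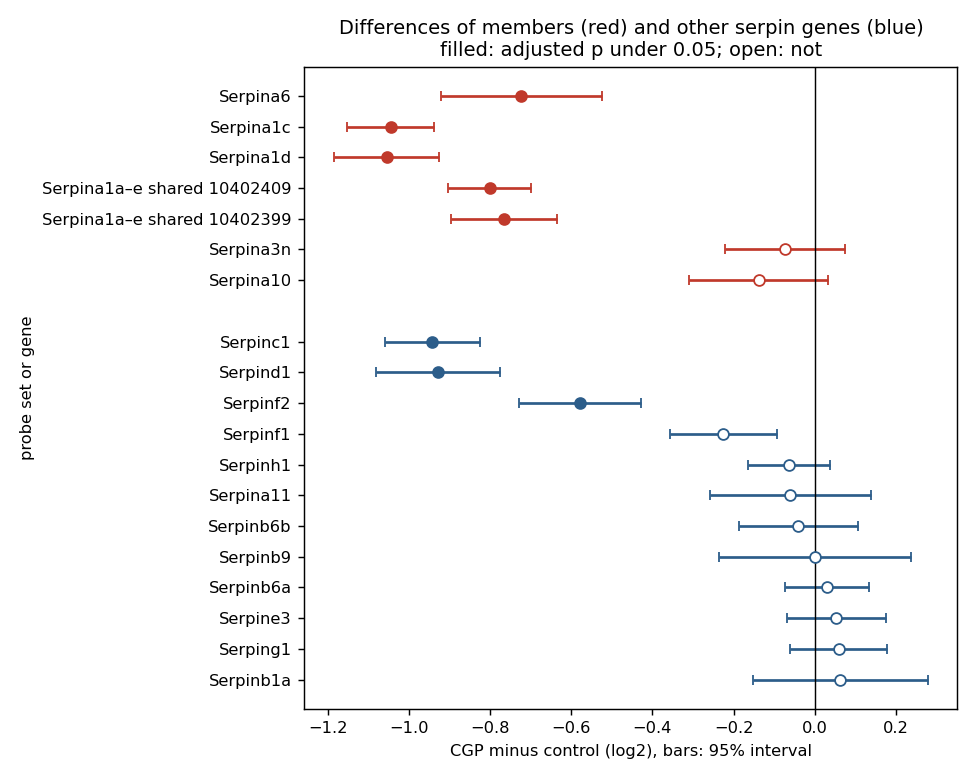
Difference between the groups (horizontal axis, CGP minus control, log2) with its 95% interval for the 7 Serpina probe sets (red, upper part) and the 12 other tested genes whose symbol begins with Serpin (blue, lower part), with filled points for an adjusted p under 0.05. The serpin Agt is not drawn. The 5 filled red points lie between -1.06 and -0.72, and the filled blue points are Serpinc1, Serpind1 and Serpinf2.

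The differences were also compared between members within arrays, by taking the log2 difference of 2 probe sets on each array and setting the CGP arrays against the control arrays. For the 21 pairs, an exact two-sided permutation test of 3 arrays against 3 cannot go below p = 0.10 and so cannot pass 0.05 (smallest adjusted p over the 21 pairs 0.131). The difference of Serpina3n was less negative than that of Serpina6 by 0.65, and that of Serpina10 by 0.59. The difference of Serpina1c was more negative than that of the shared probe set 10402409 by 0.24 and than that of Serpina6 by 0.32 (exact permutation p = 0.1 for each of these 4 pairs). The 5 pairs whose within-array values overlapped between the groups were Serpina6 with either shared probe set (0.04 with 10402399 and 0.08 with 10402409), the shared probe sets with each other (0.04), Serpina1c with Serpina1d (0.01, with Serpina1d the more negative) and Serpina3n with Serpina10 (0.07).

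RefSeq places 28 Serpina genes and pseudogenes, with a few other loci between them, on chromosome 12, and 10 of them had a probe set. In this order Serpina10 comes first and did not pass the test, Serpina6 follows and fell, the 5 Serpina1 copies lie further along and their 4 probe sets fell, and Serpina3n comes last and did not pass. Serpina11, the first gene past the Serpina1 copies, had means of 6.91 in the CGP group and 6.97 in the control group (difference -0.06, SE 0.08, limma adjusted p = 0.735). Serpina5, the protein C inhibitor, had a probe set that did not pass the filter on low values. In this order, probe sets that fell lay between others that did not pass the test. Serpina10 and Serpina11 lay close to the background (6.42 to 6.65), which limits what their tests can show. Since only 10 of the 28 had a probe set, the extent of the fall along the cluster is not known.

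**Figure D3:**
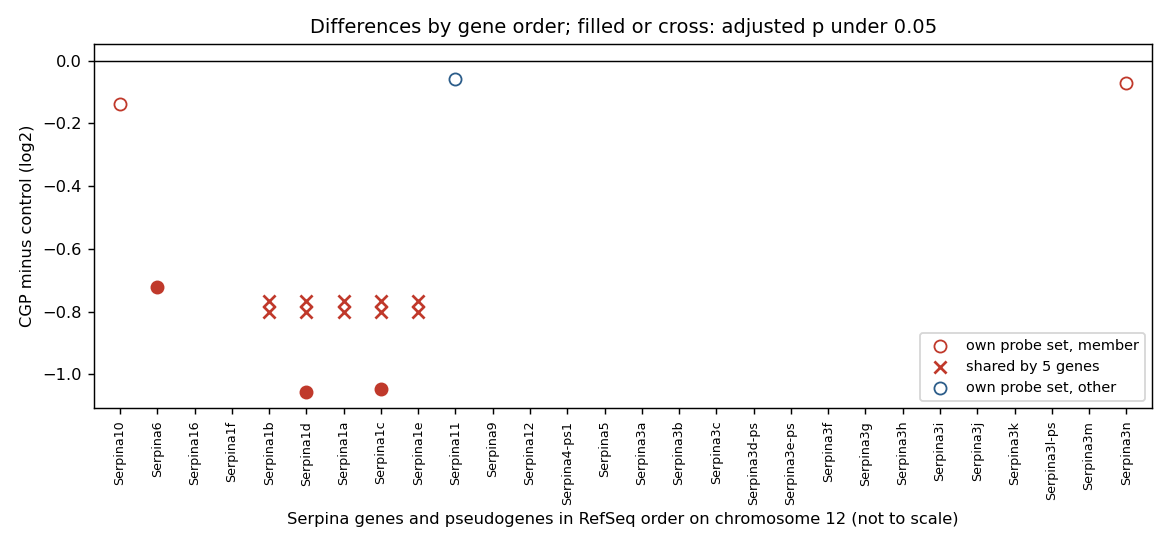
Difference between the groups (vertical axis, CGP minus control, log2) for tested probe sets of the 28 Serpina genes and pseudogenes in RefSeq order on chromosome 12 (horizontal axis, not to scale), with crosses for probe sets shared by 5 genes and filled or open circles for those of a single gene. Serpina6 and the Serpina1 copies lie between -1.06 and -0.72, while Serpina10, Serpina11 and Serpina3n lie between -0.14 and -0.06.

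Serpins that are not among the 10 genes taken here were compared as a plasma list and a list of other clades. Of 7 listed serpins that are secreted to plasma, 6 were tested, of which 3 passed as lower and 0 as higher, with a median difference of -0.42, against -0.01 over all probe sets tested. Antithrombin (Serpinc1) had values of 8.23, 8.32 and 8.34 on the CGP arrays, against 9.27, 9.18 and 9.26 on the control arrays, and fell by 0.94 (SE 0.05, limma adjusted p = 0.000115). Heparin cofactor II (Serpind1) fell by 0.93 (SE 0.07) and alpha-2-antiplasmin (Serpinf2) by 0.58 (SE 0.06). The C1 inhibitor (Serping1), made by many cell types, differed by 0.06 (SE 0.05, limma adjusted p = 0.566), and Serpinf1, the pigment epithelium-derived factor, by -0.23 (SE 0.06, limma adjusted p = 0.0832). Angiotensinogen (Agt) differed by -0.25 (SE 0.05) and narrowly missed the threshold (limma adjusted p = 0.0518). Of 6 serpins of other clades tested, most of them intracellular, 0 passed in either direction, and their differences lay between -0.06 and 0.06, with Serpine3 above background on only 1 array. These included Serpinh1, the collagen chaperone of the endoplasmic reticulum (-0.06), and Serpinb9, the intracellular inhibitor of granzyme B (0.0006).

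Markers of hepatocytes moved in the same direction on the same arrays. Of 30 listed hepatocyte genes, chosen with earlier results of these arrays known and therefore no independent evidence of direction, 27 were tested and all 27 were lower, with a median difference of -0.79. Leaving out 1 array ended the call of Fga in 4 of 6 fits (without CGP 2, CGP 3, control 2 or control 3, adjusted p up to 0.130), of Tdo2 in 2 (without CGP 3 or control 3) and of Uox in 1 (without CGP 3). The 5 genes tied at the smallest adjusted p were Hgd, an enzyme of tyrosine breakdown (means of 8.21 in the CGP group and 9.46 in the control group), Cps1 of the urea cycle (8.90 in CGP and 10.10 in control), the kininogen Kng1 (9.60 in CGP and 10.65 in control) and the apolipoprotein Apoa2 (10.89 in CGP and 11.92 in control), with the major urinary protein Mup3 (8.30 in CGP and 9.65 in control). The median over the 27 genes was 8.64 to 8.82 on the CGP arrays and 9.74 to 9.83 on the control arrays. Of the 27, 24 lay above background on all 6 arrays, with differences between -1.46 and -0.42. The other 3, Cyp7a1, Cyp1a2 and Uox, lay under background on the CGP arrays, so that no exact difference is given for them. Albumin (Alb), the most abundant plasma protein made by the liver, had means of 12.98 in the CGP group and 13.40 in the control group. The difference of Serpina6 was more negative than that of 9 of the 27 and less negative than that of 18, those of Serpina1c and Serpina1d were more negative than those of 18 and 19, and Serpina3n and Serpina10 were less negative than all 27. The part of hepatocyte RNA in the differences of the Serpina genes was not tested. In tissue samples of this kind, fewer cells of a type and less RNA per cell cannot be told apart.

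**Figure D4:**
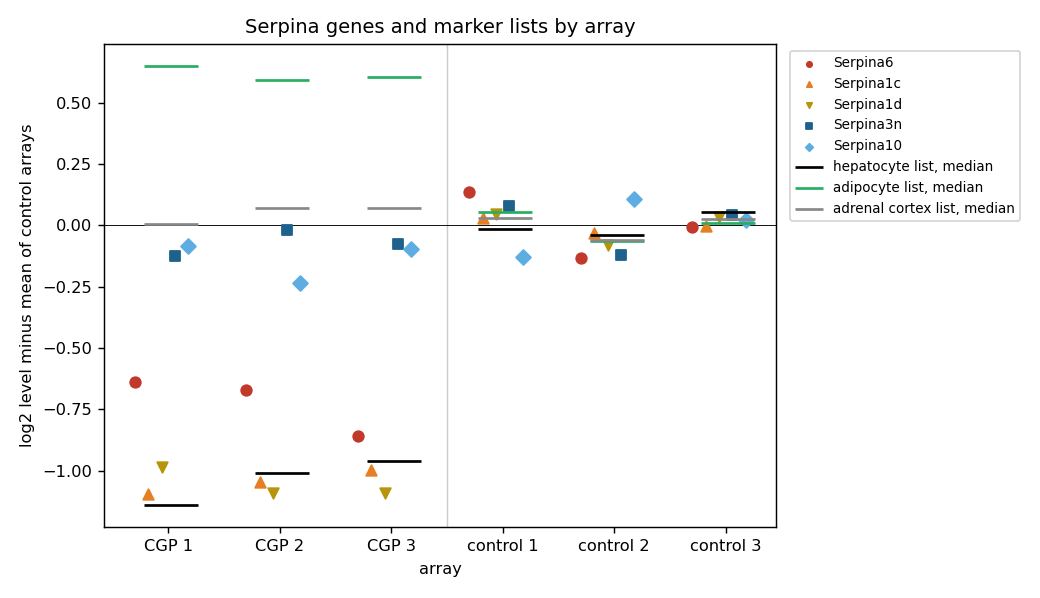
Log2 level minus the mean of the control arrays (vertical axis) on each of the 6 arrays (horizontal axis) for 5 Serpina genes (points) and for the per-array median of the hepatocyte, adipocyte and adrenal cortex marker lists (bars). On the CGP arrays Serpina6, Serpina1c and Serpina1d and the hepatocyte list lie below 0, the adipocyte list lies above 0, and Serpina3n, Serpina10 and the adrenal cortex list stay nearer to 0.

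Marker lists of other cell types showed another pattern. Of 16 adipocyte genes tested, 14 passed as higher and 0 as lower, though Retn lost its call in 3 of the 6 fits that left out 1 array (without CGP 2, CGP 3 or control 3, adjusted p up to 0.0669). The median over the 16 was 11.40 to 11.45 on the CGP arrays and 10.74 to 10.86 on the control arrays. The brown fat gene Ucp1, whose protein uncouples respiration, was higher by 1.22, the glycerol channel Aqp7 by 1.02, the fatty acid elongase Elovl3 by 0.91 and the glucose transporter Slc2a4 by 0.65. The labelled tissue was checked with its own genes, and all 12 adrenal cortex and all 11 medulla genes tested lay above background on all 6 arrays, and of these 1 cortex gene, the aldosterone synthase Cyp11b2, was higher by 0.50 (SE 0.05) and the others did not pass the test. Of 11 macrophage and neutrophil genes, 0 passed the test. The 7 above background on all 6 arrays, mostly of macrophages, had differences between -0.12 and 0.11. The neutrophil genes S100a9 and Mpo and the macrophage gene Cd163 were above background on 0 arrays and Elane on 3. Neutrophils, whose elastase human alpha-1-antitrypsin inhibits, were therefore not measurably marked. Of 10 fibroblast and endothelial genes, 0 passed. The part of the adipocyte genes in the Serpina differences was not tested.

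Genes that act with corticosteroid-binding globulin in glucocorticoid supply and response were mostly not called. Of 17 tested, 1 passed as lower, 2 as higher and 14 in neither direction, with a median difference of 0.02. Among all tested probe sets, 1.66% were lower and 1.80% higher. The largest difference among those not called was that of Abcb1a (0.28, SE 0.08, limma adjusted p = 0.127). The glucocorticoid receptor Nr3c1 had means of 7.69 in the CGP group and 7.55 in the control group (difference 0.14, SE 0.05, limma adjusted p = 0.177). Hsd11b1, which regenerates active glucocorticoid inside cells, differed by -0.03 (SE 0.06, limma adjusted p = 0.810). The glucocorticoid response genes of the list did not move together. Among them, Fkbp5 and Tsc22d3 differed by 0.05 and 0.02, while Tat fell and Pdk4 and Zbtb16 were higher. The member that fell was the tyrosine aminotransferase Tat (by 0.68, SE 0.04), a liver enzyme that the hepatocyte list also held. Pdk4, an inhibitor of pyruvate dehydrogenase, was higher by 0.47 (SE 0.04). The transcription factor Zbtb16 was higher by 0.24 (SE 0.04, limma adjusted p = 0.0341), but this call held only without control 1 among the 6 fits on 5 arrays, the adjusted p reaching 0.164 in the others.

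Other proteins that share the plasma with the Serpina products were divided. Of 7 carriers of hormones and vitamins tested, 4 were lower and 3 did not pass. The 4 were Alb (by 0.42), transthyretin (Ttr), which carries thyroid hormone (by 0.79), Rbp4, which carries retinol (by 0.57), and Igfbp2, which binds insulin-like growth factors (by 0.60), and Alb and Ttr are also in the hepatocyte list. Serpina7, the thyroxine-binding globulin, had no probe set of its own and was not analysed here. Of 14 acute phase proteins tested, 6 passed as lower, 0 as higher, and the other 8 missed the threshold. Of the 6, 4 (Hpx, Fga, Fgb and Fgg) are also in the hepatocyte list, so that these calls are the same as above, and Saa4 and Orm2 lay above background on 0 and 1 arrays. Crp, the C-reactive protein, was lower by 1.12 (SE 0.07), the haem carrier Hpx had means of 9.68 in the CGP group and 10.68 in the control group, and lower too were Itih4 by 0.53 (SE 0.04) and fibrinogen beta (Fgb) by 0.48 (SE 0.04). Haptoglobin (Hp), also made in fat, differed by 0.10 (SE 0.05, limma adjusted p = 0.373), the lipocalin Lcn2 by -0.17 (SE 0.06, limma adjusted p = 0.177) and Lbp by -0.06 (SE 0.04, limma adjusted p = 0.518). Orm1, also not called, differed by -0.29 (SE 0.06, limma adjusted p = 0.0633). The value for the acute phase inhibitor Serpina3n was -0.07.

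Among 9 tested proteases and partners of the serpins, 2 were lower and 7 did not pass, and 7 of the 9 lay above background on all 6 arrays. Plasminogen (Plg), the substrate of the activators that serpins restrain, was lower by 0.90 (SE 0.05), and coagulation factor X (F10), whose active form Serpina10 inhibits, was lower by 0.45 (SE 0.06). Proz, the cofactor of Serpina10, differed by -0.18 (SE 0.12, limma adjusted p = 0.427). Neutrophil elastase (Elane), the target of human alpha-1-antitrypsin, lay above background on 3 of the 6 arrays. Its means were 6.57 in the CGP group and 6.60 in the control group, so its test can show little.

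Of 9 liver transcription factors tested, 2 were lower and 7 did not pass, and 6 of the 9 lay above background on all 6 arrays. Hnf4a had means of 7.99 ± 0.04 in the CGP group and 8.50 ± 0.02 in the control group (SD, n = 3 arrays each), with no overlap, and fell by 0.50 (SE 0.04, limma adjusted p = 0.000734). Foxa3 fell by 0.41 (SE 0.05) but lay above background on only 4 of the 6 arrays, so that this difference has a limited basis. Foxa2 differed by -0.20 (SE 0.05, limma adjusted p = 0.0690) and Cebpa, which fat also expresses, by 0.26 (SE 0.06, limma adjusted p = 0.0728).

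The genes whose pattern over the 6 arrays was most like that of Serpina6 were sought among 16029 probe sets of single genes, by the root mean square difference of values centred on the mean of each probe set. The closest were Cyp3a25 (0.05), a cytochrome P450, Ces3a (0.05), a carboxylesterase, Igha (0.07), the constant region of immunoglobulin A, Reep6 (0.07) and Gfra1 (0.08), a receptor of the neurotrophic factor GDNF. Their Pearson correlations with Serpina6 were at least 0.98 over the 6 arrays and largely reflect the shared difference between the groups, which was -0.77 for Cyp3a25, -0.69 for Ces3a and Reep6, and -0.59 for Gfra1. Igha had means of 5.88 in the CGP group, under background, and 6.57 in the control group, within the range of the background, so that no fold is given for it. The closest to Serpina3n were Mgst2, Snx7, Rbmx, Mrps18a and Gtf2h3 (0.01 to 0.02), with differences between -0.09 and -0.06, and 0 of these 5 passed the test.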

How the data were processed

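The authors deposited log2 expression values of 25150 probe sets for 6 Affymetrix arrays. The submitters' processing notes name RMA, which corrects background, normalises by quantiles and summarises probes, and Partek, each without a version. The genome build and annotation version were not given in the sources used here. The values were not normalised again. Arrays have no read depth, and their number limits the precision. Groups were read from the sample titles.

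Platform annotation gave 1 symbol to 16769 probe sets, several to 1031 and none to 7350. Of those with a symbol, 17022 reached a log2 of 6 on 3 or more of the 6 arrays and were tested, and 778 were left out. CGP minus control was fitted in limma (version 3.58.1, R version 4.3.3) by lmFit and eBayes, two-sided and without covariates, with Benjamini-Hochberg adjustment across all tested. SE is the moderated standard error. The script was tested on simulated data. For gene lists, the probe set with the highest mean over the 6 arrays stood for each gene. The rule for named genes took every member, the 4 called genes per list with the lowest adjusted p, Alb, Hnf4a, Nr3c1, Hsd11b1 and Serpina7 (a further item is not reported here), and the 5 probe sets most like Serpina6 and like Serpina3n. Other genes were named after their values were seen. Members and lists were chosen with earlier results of these data known. Promoters (RefSeq) matched 6 of the 10 genes by symbol. The 15 alternatives left out each array, changed the filter, probe sets, normalisation or variance model, or added a replicate block. Exact tests used scipy 1.17.1 and plots matplotlib 3.10.9 in Python 3.11.15.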

Additional observations from a re-analysis of the deposited data

How the results depend on the processing

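All 15 alternatives kept the negative direction of the 7 Serpina probe sets that they tested, and none moved a probe set across the threshold. The count of lower Serpina probe sets was 5 in 14 of the 15 and 3 when only probe sets with 1 symbol were tested, which leaves out the 2 shared ones by construction. The difference of Serpina6 lay between -0.79 and -0.65 (adjusted p up to 0.0252), that of Serpina1c between -1.07 and -1.02, that of Serpina1d between -1.10 and -1.03, and those of Serpina3n and Serpina10 between -0.13 and -0.03 and between -0.20 and -0.08 (adjusted p of at least 0.275 and 0.0984). Over all probe sets, 589 were called, but 382 when unannotated probe sets were tested too, 1245 with a variance trend and robust prior, 1909 with array weights and 223 with the array number as a replicate block, and 250 to 1078 when 1 array was left out, with 1078 without control 1, 250 without CGP 2 or CGP 3, 279 without control 3, 333 without CGP 1 and 383 without control 2. The balance of lower and higher calls also turned in part of the settings. As reported, 282 were lower and 307 higher. Without the filter on low values 281 were lower and 272 higher, against 218 and 164 with unannotated probe sets and 162 and 61 with the block. Lower calls also outnumbered higher ones without CGP 2 (172 and 78), CGP 3 (167 and 83), CGP 1 (188 and 145), control 2 (226 and 157) or control 3 (170 and 109). In the other settings more were higher than lower, as in the reported fit. Among these were 484 and 594 without control 1, 531 and 714 with the variance trend and 852 and 1057 with array weights. The cause was not tested. Deviations from the group means correlated by -0.37, -0.17 and -0.12 between arrays with the same number, and by -0.16 to 0.28 between the others. Deviations within a group are tied to each other, so this check cannot show whether arrays of the same number shared a batch. The block kept all 5 Serpina calls. Among the listed genes, the block ended the calls of Fga, Tdo2, Zbtb16, Retn, Fabp4 and Pnpla2 (adjusted p of 0.110, 0.0619, 0.152, 0.0800, 0.0579 and 0.0535). The count of Serpina probe sets with higher values was 0 throughout.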
